A study of Mus musculus with 6 samples.

Results

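Astrocytes clear the potassium and glutamate that firing neurons release, and they also handle water. The transcripts of 9 genes of that work were followed here: Kcnj10, Atp1b2, Aqp4, Slc1a2, Slc1a3, Glul, Slc7a11, Gja1 and Gjb6. They were found by symbol (GENCODE annotation of GRCm38) among the 55487 genes of a count table of mouse visual cortex, each under a single Ensembl identifier. The group was chosen by its known roles and by measured values of these libraries, since Kcnj10 was selected on the spread of its level between them, so the values of Kcnj10 are given as a description and without a test. The mice carried an engineered mutation in an untranslated region of Mmp9, a secreted protease of the extracellular matrix, on the B6.CBA/Tar background, and the labels do not say which untranslated region. There were 2 libraries each of homozygous mice (UTRmut/UTRmut, called UTRmut), heterozygous mice (UTRmut/WT, het) and wild type mice (WT/WT, WT), all at postnatal day 28, and in each genotype 1 library was of a female (numbered replicate 1 here) and 1 of a male (replicate 2). The labels do not say whether a library held tissue of 1 animal or of several, so every p-value rests on the spread among these 6 libraries, which may include technical spread.

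In cortex, the inward rectifier channel encoded by Kcnj10 (Kir4.1) lets potassium into astrocytes, and the sodium pump, for which Atp1b2 encodes a glial beta subunit, takes it up as well. The transporters of Slc1a2 (GLT-1) and Slc1a3 (GLAST) remove glutamate from around synapses, and glutamine synthetase (Glul) turns it into glutamine that is handed back to neurons. Aqp4 is the water channel of the endfeet on blood vessels, Slc7a11 (xCT) exchanges cystine for glutamate, and the connexins of Gja1 (connexin 43) and Gjb6 (connexin 30) join astrocytes into a network through which ions and metabolites spread.

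Total counts were 9500090 to 11966579 per library, and all 9 genes passed the filter on low counts that left 16119 genes. Mmp9 itself had 8 and 16 counts in UTRmut, 9 and 9 in het and 4 and 9 in WT. All 18 further astrocyte markers, among them Aldh1l1, Aldoc and Sox9, were detected in every library and passed the filter, and their summed level ranged from 4834 to 5352 CPM (counts divided by library size and scaled to a common total, adjusted with trimmed mean of M-values factors). The WT female had the lowest level of the 6 libraries for Kcnj10, Aqp4, Slc1a2, Slc1a3, Gja1 and Glul, and a median astrocyte marker level 0.12 below the mean of the 6 libraries on the log2 scale, against between -0.02 and 0.04 in the other 5. The low level of the WT female was not particular to astrocytes. On the same scale its median was -0.12 for microglia, -0.08 for neuron and -0.47 for meningeal markers. It was 0.03 for oligodendrocyte and 0.13 for erythroid markers. In these bulk libraries fewer astrocytes and less RNA per astrocyte cannot be told apart.

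Per kilobase of exon, Glul, Slc1a2 and Slc1a3 were more abundant than the other 6 genes, with no overlap between libraries. Glul had 438 ± 28.4 CPM per kilobase and Slc1a2 had 347 ± 31.2 (SD, n = 6 libraries), followed by Slc1a3 at 71.1 ± 5.11. The other 6 lay in a narrow band: Atp1b2 at 19.8 ± 2.68, Gjb6 at 19.7 ± 1.80, Gja1 at 16.1 ± 1.34, Kcnj10 at 14.9 ± 3.75, Aqp4 at 12.5 ± 1.50 and Slc7a11 at 7.81 ± 1.07. The ranges of neighbours in that order overlapped between libraries from Atp1b2 to Aqp4, and those of Glul, Slc1a2, Slc1a3 and Slc7a11 overlapped only in the pair of Glul and Slc1a2. The level per kilobase depends on the exons taken to be expressed, here all annotated exons of a gene.

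Kcnj10 (chromosome 1, 172341210 to 172374085, plus strand) had 114 CPM in the UTRmut female and 66.2 in the UTRmut male, 81.1 and 78.3 in the het female and male, and 54.7 and 88.7 in the WT female and male. The lowest and the highest library were thus both female, they differed 2.08-fold, and the 3 males lay between them. The counts behind these values were 567 to 1220, and the SD over the 6 libraries was 0.36 on the log2 scale, larger than for 83.6% of the genes tested and for 99.4% of the 4365 genes at 50 CPM or more. The 2 het libraries were nearly equal, and the UTRmut and the WT libraries each lay far apart. Averaged over the sexes, Kcnj10 had 90.1 ± 33.7 CPM in UTRmut, 79.7 ± 1.99 in het and 71.7 ± 24.1 in WT (SD, n = 2 each). Relative to WT its log2 fold was 0.32 (SE 0.38) in UTRmut and 0.15 (SE 0.38) in het. Atp1b2 (chromosome 11) had 91.8 and 69.3 CPM in the UTRmut female and male, 83.5 and 67.4 in het, and 80.4 and 93.3 in WT. Its female libraries stayed within a small range, while in the males the WT library lay above the 2 others, and UTRmut and het both overlapped with WT. Its log2 fold relative to WT was -0.11 (SE 0.15) in UTRmut and -0.21 (SE 0.15) in het.

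**Figure D1:**
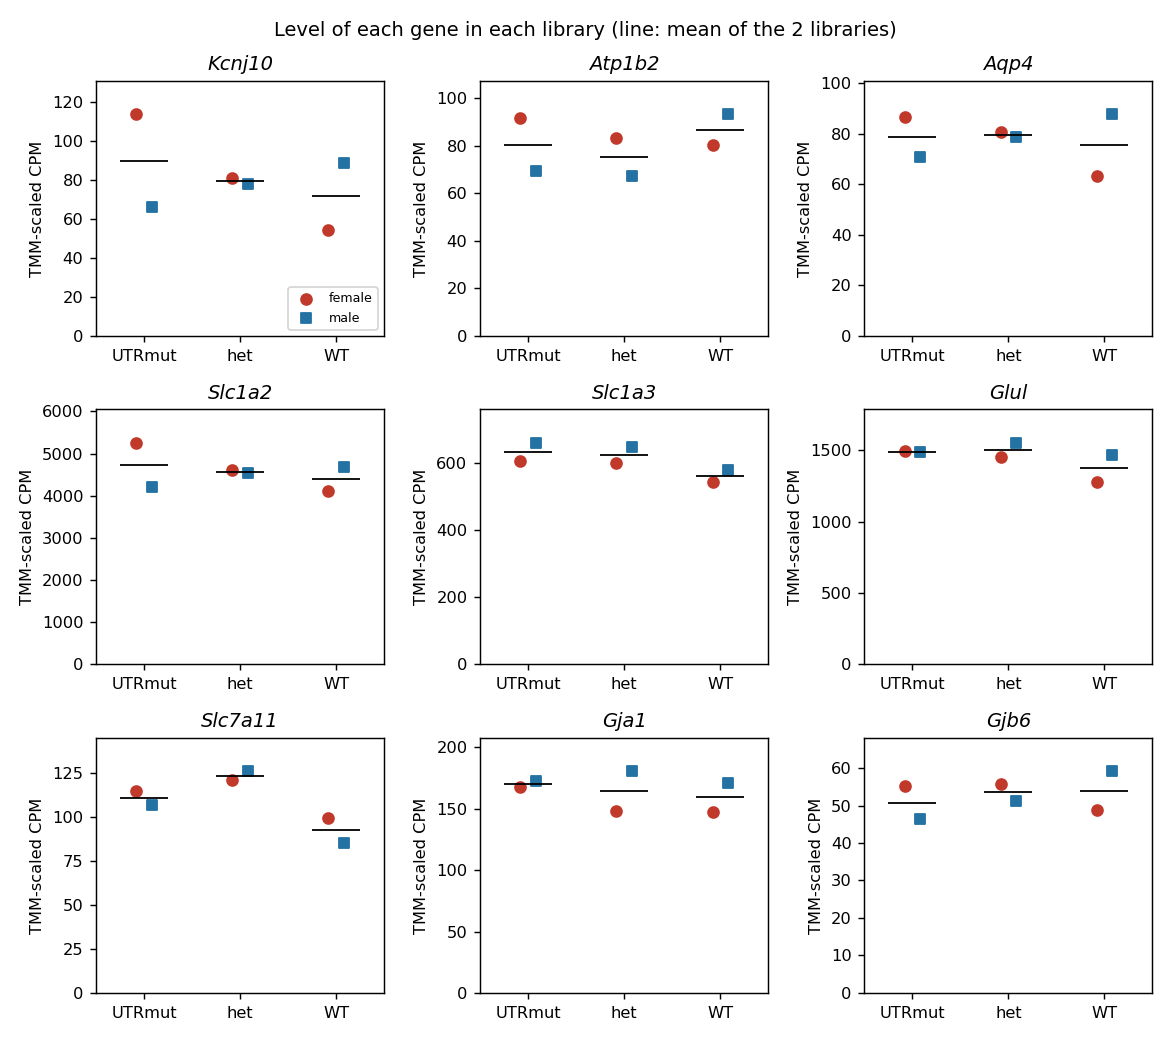
Level of each of the 9 genes in TMM-scaled CPM (vertical axis, from 0) in UTRmut, het and WT; circles are females, squares are males, and the line is the mean of the 2 libraries. Kcnj10 reached 114 CPM in the UTRmut female and 54.7 in the WT female, whereas Slc7a11 lay above both WT libraries in all 4 libraries with a mutant allele.

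Aqp4 (chromosome 18, minus strand) had 86.5 CPM in the UTRmut female and 71.0 in the UTRmut male, 80.6 and 78.7 in the het female and male, and 63.4 and 87.7 in the WT female and male. The order of the 6 libraries resembled that of Kcnj10 in a narrower range, with a 1.38-fold distance between the lowest and the highest library. UTRmut averaged 78.7 ± 10.9 CPM, het 79.6 ± 1.35 and WT 75.6 ± 17.2 (SD, n = 2 each), so the genotype means differed by less than the 2 UTRmut or the 2 WT libraries did. Relative to WT the log2 fold was 0.06 (SE 0.15) in UTRmut, and 0.07 (SE 0.15) in het. Single libraries set these signs: the UTRmut fold was -0.09 without UTRmut replicate 1 and -0.16 without WT replicate 1, against 0.32 without WT replicate 2, and it also turned negative when libraries were scaled by size only. The het fold was -0.14 without WT replicate 1 and 0.33 without WT replicate 2.

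Slc1a2, the main glutamate transporter of the forebrain, had 5256 CPM in the UTRmut female and 4197 in the UTRmut male, 4599 and 4528 in the het female and male, and 4103 and 4677 in the WT female and male. The UTRmut female was highest and the WT female lowest, again with the 3 males in between. Slc1a3 (chromosome 15) had 608 and 661 CPM in UTRmut, 601 and 648 in het and 543 and 580 in WT. Here every library with a mutant allele lay above both WT libraries, and within each genotype the male lay above the female. Glul (chromosome 1) had 1495 and 1486 CPM in UTRmut, 1455 and 1554 in het and 1276 and 1471 in WT. The 2 UTRmut libraries of Glul lay above both WT libraries by a small distance from the WT male, and the het libraries overlapped with WT.

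Relative to WT, Slc1a3 had a log2 fold of 0.18 (SE 0.08) in UTRmut and 0.15 (SE 0.08) in het. Glul had 0.12 (SE 0.08) and 0.13 (SE 0.08), and Slc1a2 had 0.11 (SE 0.10) and 0.06 (SE 0.10). No transporter and no step of the cycle passed in either comparison (edgeR, Benjamini-Hochberg adjusted p = 0.9988 for UTRmut against WT and 0.9998 for het against WT). Glul shares 3.49% of its exon bases with Teddm2 on the opposite strand, which had 65 to 96 counts per library, and Slc1a2 shares 1.44% with the antisense gene Gm13872, which had 0 to 5. The strand setting of the counting is not given in the sources used here. Glul had at least 13235 counts and Slc1a2 at least 42542 in each library.

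Slc7a11 imports cystine, which cells need for glutathione, and exports glutamate in exchange. The transcription factor ATF4 switches it on when amino acids are short, through amino acid response elements. The window from 250 bases before to 50 bases after its start (RefSeq, GRCm38.p6) holds the letters of that element on each strand, and the stretch is shown because no other window found for these genes has a match. It lies at chr3:50443653-50443679, minus strand, from base -66 to base -40 relative to the start, with TGATGCAA and its reverse complement TTGCATCA in capitals:
Slc7a11: TGATGCAAacctggagaatTTGCATCA
TGATGCAA was searched on both strands. Of 32851 promoter windows 294 (0.895%) held at least 1 match and 2 (0.00609%) held 2 or more. Windows were found for 7 of the 9 genes, and Slc7a11 was the 1 with a match. The antioxidant response element TGACNNNGC, searched on both strands, was in 12.4% of windows and in 0 of the 7. A match is a run of letters and not evidence that a factor binds there.

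Slc7a11 (chromosome 3, 49892526 to 50443614) had 115 CPM in the UTRmut female and 107 in the UTRmut male, 121 and 126 in the het female and male, and 99.4 and 85.2 in the WT female and male. The genotypes did not overlap, with het highest, UTRmut in between and WT lowest. Means were 111 ± 5.71 CPM in UTRmut, 123 ± 3.66 in het and 92.3 ± 10.03 in WT (SD, n = 2 each). Relative to WT the log2 fold was 0.26 (SE 0.10) in UTRmut and 0.42 (SE 0.10) in het, and relative to het it was -0.16 (SE 0.10) in UTRmut. None passed over all genes (edgeR, Benjamini-Hochberg adjusted p = 0.9988, 0.9998 and 0.9999), and Slc7a11 ranked 10 of 16119 by unadjusted p in het against WT. Over 13 alternatives the log2 fold of het against WT stayed between 0.32 and 0.53, and its smallest adjusted p in edgeR (Benjamini-Hochberg) was 0.0688, without WT replicate 1.

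Gja1, the more abundant connexin gene of astrocytes by counts, had 168 and 173 CPM in UTRmut, 148 and 181 in het and 147 and 171 in WT, female first in each. The male lay above the female in every genotype, and the genotypes overlapped. Gjb6 had 55.2 and 46.3 CPM in UTRmut, 55.8 and 51.3 in het and 48.8 and 59.2 in WT, with the male below the female in UTRmut and het and above it in WT. Gja1 had a log2 fold relative to WT of 0.10 (SE 0.11) in UTRmut and 0.05 (SE 0.11) in het, and Gjb6 had -0.09 (SE 0.12) in UTRmut and -0.01 (SE 0.12) in het.

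Averaged over the sexes, none of the 8 genes other than Kcnj10 differed between genotypes past the threshold. In UTRmut against WT 0 of 8 passed in edgeR at a Benjamini-Hochberg adjusted p under 0.05, where 0.00620% of all genes tested passed, and 0 passed in DESeq2, where 0.0496% did. At an unadjusted p under 0.05 there was 1, Slc7a11, against 2.71% of all genes. Of the 8 genes 6 were above 0 in log2 fold and the median was 0.10, against 47.9% positive and a median of -0.01 over all genes. Slc1a3, Glul and Slc7a11 were higher with no overlap between the groups, as were 14.0% of all genes. In het against WT 0 of 8 passed in edgeR (0.0124% of all genes) and 0 in DESeq2 (0.0186%), and 1 had an unadjusted p under 0.05 (Slc7a11, against 2.37%). There 6 of the 8 were positive with a median of 0.06 (48.9% and -0.00 over all genes). Slc1a3 and Slc7a11 were higher there without overlap, as were 13.4% of all genes. These comparisons share the WT libraries. Between UTRmut and het 0 of 8 passed in edgeR (0.0124% of all genes) and 0 in DESeq2 (0.0434%), 0 had an unadjusted p under 0.05 (2.80%), and Slc7a11 was lower without overlap, as were 17.9% of all genes.

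**Figure D2:**
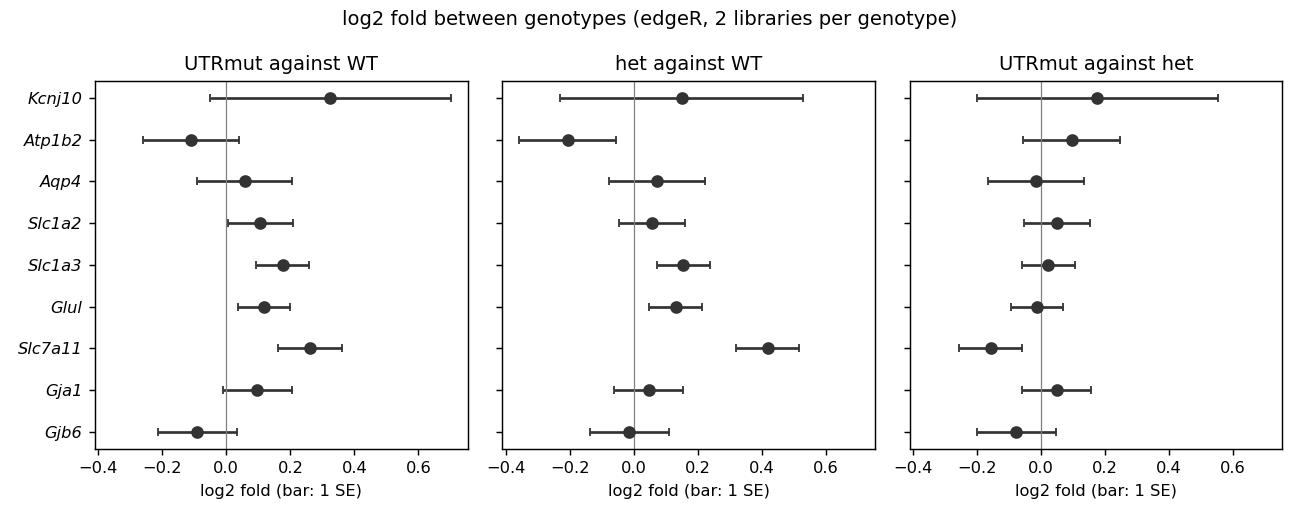
log2 fold with 1 SE (horizontal axis) of each gene in the 3 comparisons of genotypes, from edgeR with 2 libraries per genotype. Slc7a11 lies farthest from 0 in het against WT (0.42, SE 0.10), and Kcnj10 has the widest error (SE 0.38).

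Per mutant allele the log2 change was 0.09 (SE 0.04) for Slc1a3, 0.13 (SE 0.07) for Slc7a11 and 0.06 (SE 0.04) for Glul. None of the 8 passed (edgeR, Benjamini-Hochberg adjusted p = 0.998; 0 in DESeq2, where 0.0248% of all genes passed), 0 genes passed in edgeR over the whole table, and Slc1a3 alone had an unadjusted p under 0.05, against 3.12% of all genes. Between females and males, with genotype in the model, the log2 fold was -0.18 (SE 0.07) for Gja1, -0.11 (SE 0.06) for Slc1a3 and 0.17 (SE 0.12) for Atp1b2. Again none of the 8 passed in edgeR (Benjamini-Hochberg adjusted p = 0.680 to 0.964; 0.0372% of all genes passed) or in DESeq2 (0.0620%), and Gja1 alone had an unadjusted p under 0.05, against 6.99%. Without WT replicate 1 or without WT replicate 2, the log2 fold of Atp1b2 was 0.36 in either case. Both fits estimate it from the same UTRmut and het libraries, since a lone WT library holds no contrast of sex. They leave out the WT pair, in which the male lay above the female (93.3 and 80.4 CPM).

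The genotype averages hid opposite orders in the female and the male libraries for 5 of the 9 genes. Kcnj10 was 1.06 higher in UTRmut than in WT on the log2 scale among females and 0.42 lower among males (-0.42), and in het against WT the differences were 0.57 in females and -0.18 in males. Aqp4 had 0.45 in females and -0.30 in males for UTRmut minus WT, and 0.35 and -0.16 for het minus WT. Slc1a2 had 0.36 and -0.16 for UTRmut minus WT, Atp1b2 had 0.19 and -0.43, and Gjb6 had 0.18 and -0.35. Each of these 5 genes also had het above WT in females and below WT in males, a pattern chosen after the values were seen. It was shown by 14.2% of all genes tested (26.7% for UTRmut against WT alone). Kcnj10 was chosen for its spread and does not count beside these shares, which leaves Aqp4, Slc1a2, Atp1b2 and Gjb6. In Kcnj10, Aqp4 and Slc1a2 the 3 genotypes were moreover in strict order in both sexes, UTRmut above het above WT in females and the reverse in males. That order was shown by 4.66% of all genes, and beside this share only Aqp4 and Slc1a2 count.

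**Figure D3:**
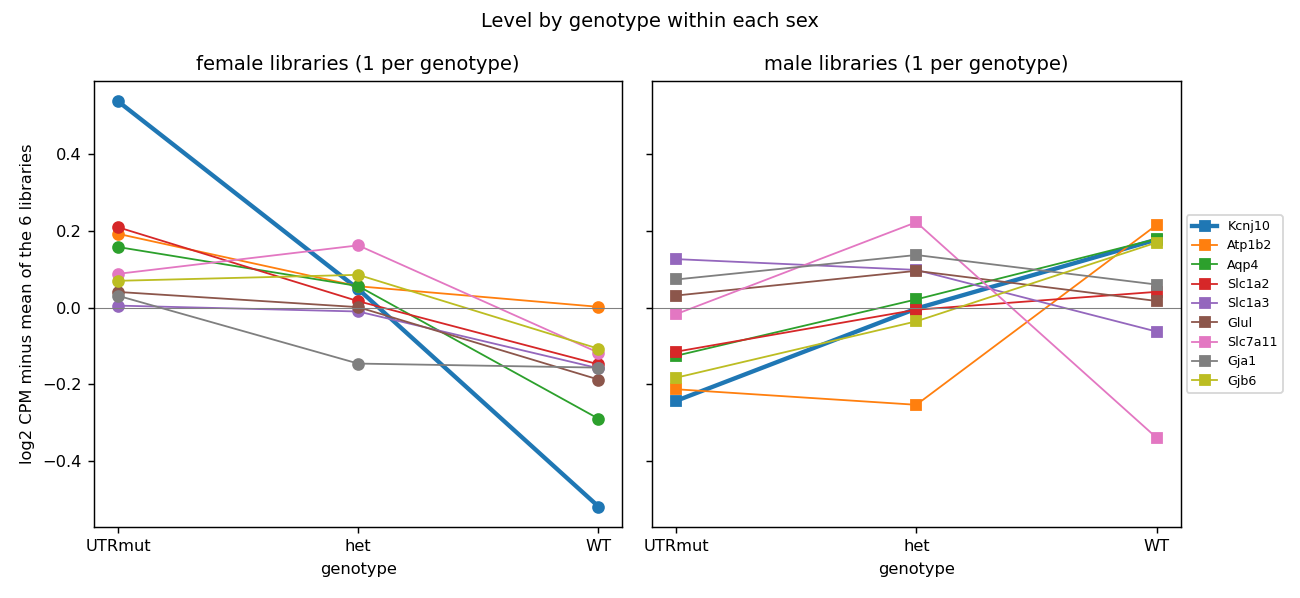
Level of each gene relative to the mean of the 6 libraries (vertical axis, log2 CPM) in UTRmut, het and WT, with the 3 female libraries in the left panel and the 3 male libraries in the right. Kcnj10 (thick line) lies at 0.54 in the UTRmut female and -0.52 in the WT female, and at -0.24 in the UTRmut male and 0.18 in the WT male.

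Slc1a3, Gja1, Glul and Slc7a11 did not share that reversal. For UTRmut minus WT they had 0.16, 0.19, 0.23 and 0.21 in females and 0.19, 0.01, 0.01 and 0.32 in males. Slc1a3 and Glul were the 2 genes of the 9 with the most similar levels over the 6 libraries (a mean absolute difference of 0.04 on the log2 scale after centring), while Kcnj10 and Slc7a11 were the least similar (0.32). This measure also depends on how much each gene varies. The SD on the log2 scale was smallest for Glul (0.097) and Slc1a3 (0.105) and largest for Kcnj10 (0.36) and Slc7a11 (0.21).

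Whether the change per allele differed between females and males was tested in 1 model over the 6 libraries with 2 residual degrees of freedom. With 1 library per genotype and sex, these measure only how far libraries lay from a straight line over alleles within each sex. They hold no spread between replicates, and each SE and p-value of this model assumes that line. Aqp4 passed, with a change per allele 0.38 higher in females than in males on the log2 scale (SE 0.08; edgeR, Benjamini-Hochberg adjusted p = 0.0248), 1 of the 8 genes other than Kcnj10, against 1.20% of all genes. The call was lost with DESeq2 (Benjamini-Hochberg adjusted p = 0.141), and in edgeR without UTRmut replicate 1, UTRmut replicate 2, WT replicate 1 or WT replicate 2 (Benjamini-Hochberg adjusted p = 0.113, 0.118, 0.614 and 0.314), while the difference stayed between 0.26 and 0.50 over 11 alternatives. Atp1b2 had a difference of 0.31 (SE 0.09), Gjb6 of 0.27 (SE 0.09) and Slc1a2 of 0.26 (SE 0.07), and none of the 3 passed (edgeR, Benjamini-Hochberg adjusted p = 0.105, 0.177 and 0.0692). At an unadjusted p under 0.05 there were 4 of the 8, against 13.6% of all genes, and 6 of the 8 were positive, against 48.9%. Slc1a2 passed in DESeq2 (Benjamini-Hochberg adjusted p = 0.0128), where 0.478% of all genes did, and over the alternatives its Benjamini-Hochberg adjusted p in edgeR or DESeq2 ranged from 0.00686 to 0.603. Atp1b2 ranged from 0.06 to 0.57 in log2 difference over the alternatives. With all 6 libraries it passed only with no filter on low counts, where the calls over all genes rose from 194 to 600. Slc7a11 ranged from -0.46, without UTRmut replicate 2, to 0.35 over the alternatives. Glul, Gja1, Slc1a3 and Slc7a11 had differences of 0.11 (SE 0.07), 0.09 (SE 0.07), -0.01 (SE 0.07) and -0.06 (SE 0.19). In Kcnj10, whose spread chose it, the difference was 0.74 and is given as a description. Each combination of genotype and sex was 1 library, so sex cannot be told apart here from whatever else distinguished these libraries.

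**Figure D4:**
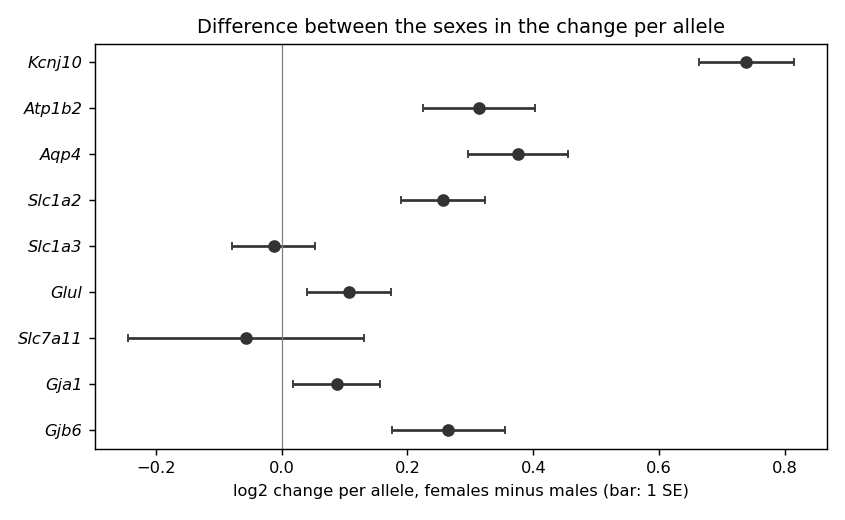
Change per mutant allele in females minus the same change in males (horizontal axis, log2, with 1 SE) for each gene, from edgeR over 6 libraries. Kcnj10 (0.74) and Aqp4 (0.38) lie farthest to the right, and Slc1a3 and Slc7a11 lie near 0.

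Most markers of vessels, meninges and blood also had a positive difference between the sexes in that comparison. All 8 meningeal markers tested had a positive difference between the sexes, with a median of 0.68, and the collagen gene Col1a2 passed (0.54, SE 0.11; edgeR, Benjamini-Hochberg adjusted p = 0.0219). Of 8 endothelial and mural markers 6 were positive (median 0.21, lowest -0.55). Rgs5, a pericyte gene, passed (0.60, SE 0.10, with an adjusted p of 0.0063 in the same edgeR fit). Cldn5, an endothelial gene, went the other way. It had 3.83 and 6.61 CPM in the UTRmut female and male, 5.62 and 7.01 in het and 6.94 and 5.53 in WT. All 4 erythroid genes tested were positive (median 0.51), and the globin genes Hbb-bs (0.47, SE 0.08) and Hbb-bt (0.77, SE 0.17) passed (edgeR, Benjamini-Hochberg adjusted p = 0.0063 and 0.0276). The summed level of the 9 meningeal markers was 69.9 CPM in the UTRmut female and 58.8 in the UTRmut male, 60.7 and 85.2 in the het female and male and 50.1 and 103 in the WT female and male, with none at 0. That of the 8 vascular markers was 153 and 119 CPM in UTRmut, 138 and 149 in het and 131 and 155 in WT. That of the 5 erythroid genes was 149.7 and 96.8 CPM in UTRmut, 168 and 176 in het and 179 and 232 in WT, with Hba-a2 at 0 throughout. The erythroid sum thus fell from WT to het to UTRmut in both sexes, further in males, unlike the reversal of Kcnj10 and Aqp4. Of the 18 astrocyte markers 11 were positive, with a median of 0.12, and 0 passed in edgeR, where 3 had an unadjusted p under 0.05. Neuron markers were positive in 8 of 8 (median 0.07) and oligodendrocyte precursor markers in 5 of 6 (0.08). Microglia markers were positive in 4 of 7 (0.15), choroid plexus and ependymal markers in 3 of 3 (0.45) and oligodendrocyte markers in 1 of 10 (-0.12), against 48.9% of all genes. The share of counts in genes of the TEC class (loci still to be experimentally verified) was 0.521% and 0.452% in the UTRmut female and male, 0.6797% and 0.523% in het and 0.751% and 0.477% in WT. Mitochondrial ribosomal RNA took 6.31% and 8.69% of counts in the UTRmut female and male, 5.78% and 5.07% in het and 4.95% and 5.23% in WT, and the 10 most abundant genes took 11.1% and 13.4% in UTRmut, 10.9% and 10.4% in het and 9.96% and 9.80% in WT. The UTRmut male was thus the highest library on both. The part of all these in the reversal of the 5 genes was not tested.

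**Figure D5:**
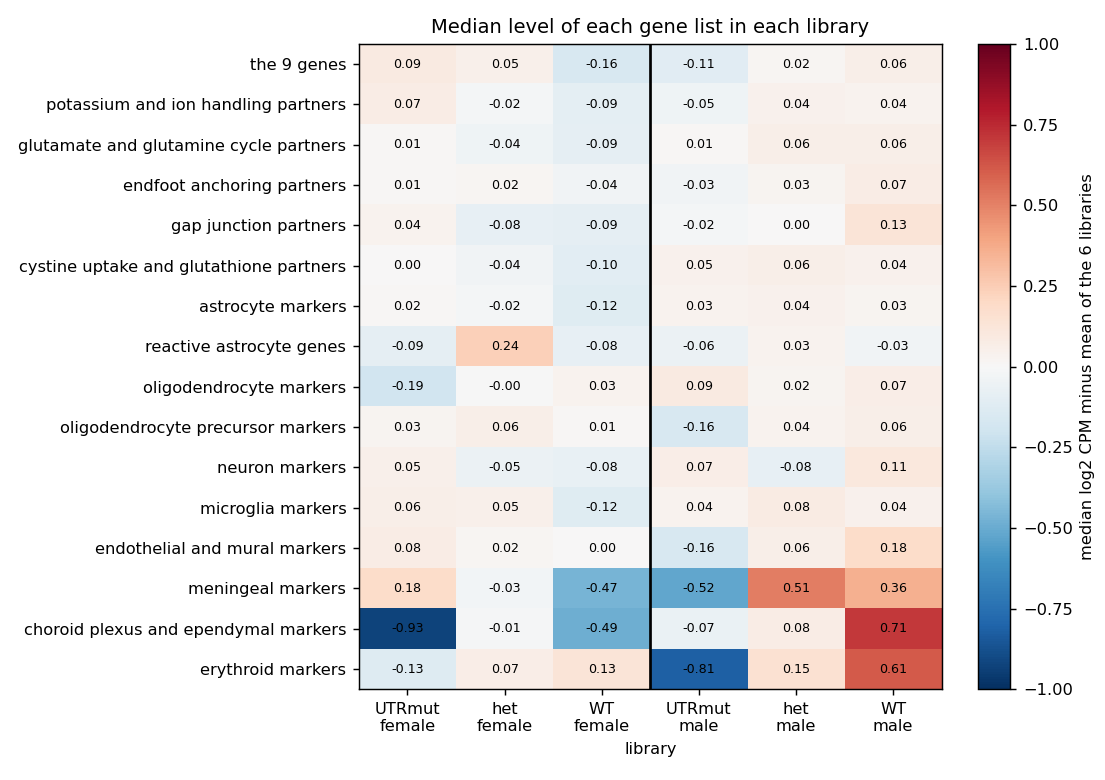
Median level of the tested genes of each list relative to the mean of the 6 libraries (log2 CPM, colour and printed number) in the 3 female (left) and 3 male (right) libraries. The 9 genes have 0.09, 0.05 and -0.16 in the UTRmut, het and WT females and -0.11, 0.02 and 0.06 in the UTRmut, het and WT males, and the meningeal list spans -0.52 to 0.51.

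In UTRmut against WT the median log2 fold was 0.08 over 18 astrocyte markers (15 positive), -0.09 over 10 oligodendrocyte markers, -0.15 over 6 precursor markers, 0.07 over 8 neuron markers, 0.04 over 7 microglia markers, -0.23 over 8 endothelial and mural markers, -0.22 over 8 meningeal markers, -0.80 over 3 choroid plexus markers and -0.90 over 4 erythroid genes. In het against WT the medians were 0.05, -0.06, 0.00, -0.04, 0.08, -0.07, 0.17, -0.05 and -0.33 in the same order. The summed choroid plexus and ependymal level was 52.3 CPM in the WT male and 4.48 to 12.5 in the other libraries, with Folr1 and Otx2 at 0 in some. Oligodendrocytes also express Kcnj10 and Glul. Their 10 markers summed to 2994 CPM in the UTRmut female, the library with the most Kcnj10, against 3628 to 3923 in the others. Their median difference between females and males in the change per allele was -0.12, with 1 of 10 positive. The part of oligodendrocyte content in the levels of Kcnj10 and Glul was not tested.

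The partners of these genes were examined by function. No partner passed in UTRmut against WT or in het against WT (edgeR, Benjamini-Hochberg adjusted p of 0.9988 and 0.9998 for those named). Among 10 genes of potassium and ion handling 6 had a positive log2 fold in UTRmut against WT (median 0.05) and 5 in het against WT (median 0.02), with 1 at an unadjusted p under 0.05 in each. That was Kcnk2, which encodes the potassium leak channel TREK-1, at 40.1 and 43.8 CPM in the UTRmut female and male, 36.95 and 44.7 in het and 33.9 and 33.0 in WT (log2 fold 0.33, SE 0.12, and 0.29, SE 0.12). All 4 libraries with a mutant allele lay above both WT libraries. Higher without overlap were 14.0% of all genes in UTRmut against WT and 13.4% in het against WT. Kcnk2 was the only 1 of the 51 tested partners with an unadjusted p under 0.05 in either comparison, against 2.71% and 2.37% of all genes. Fxyd1, a regulator of the sodium pump, had a log2 fold of 0.30 (SE 0.21) in het against WT. Kcnj16, whose product pairs with Kir4.1 in 1 channel and which was singled out after its values were seen, had 20.5 and 13.5 CPM in UTRmut, 18.8 and 18.1 in het and 17.4 and 16.8 in WT.

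Among 12 genes of the glutamate and glutamine cycle 8 were positive in UTRmut against WT (median 0.02) and 7 in het against WT (median 0.02). The glutamine transporter gene Slc38a5, at 0.696 to 1.45 CPM, had -0.87 (SE 0.48) in UTRmut against WT and Ezr, which encodes ezrin of fine astrocyte processes, had 0.14 (SE 0.13). In het against WT the glutamine transporter gene Slc38a2 had 0.20 (SE 0.11) and Slc7a10, an amino acid exchanger, -0.27 (SE 0.20). Among 10 tested genes of 11 that anchor or accompany endfoot channels, 4 were positive in UTRmut against WT (median -0.04) and 5 in het against WT (median 0.01). The chloride channel gene Clcn2 had -0.21 (SE 0.11) and the dystrobrevin gene Dtna 0.13 (SE 0.09) in UTRmut against WT. In het against WT Dtna had 0.13 (SE 0.09) and Hepacam, an adhesion molecule of astrocytes, -0.16 (SE 0.14).

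Among 6 genes of gap junctions 4 were positive in UTRmut against WT (median 0.05) and 2 in het against WT (median -0.08). Cav1 had -0.27 (SE 0.22) and Gjb1, a connexin of oligodendrocytes, 0.23 (SE 0.32) in UTRmut against WT. Gjb2 (connexin 26), a gene also of meningeal cells, had 0.56 (SE 0.27) and Tjp1 0.10 (SE 0.09) in het against WT. Among 13 genes of cystine uptake and glutathione 10 were positive in UTRmut against WT (median 0.06) and 6 in het against WT (median -0.02), although Slc7a11 was highest in het. Keap1, which restrains the oxidative stress factor NRF2, had -0.18 (SE 0.12) in UTRmut against WT and -0.17 (SE 0.12) in het against WT, Gpx4, a glutathione peroxidase, 0.13 (SE 0.10) in UTRmut against WT and Hmox1, a target of NRF2, 0.59 (SE 0.34) in het against WT. Slc3a2, the partner subunit of xCT, singled out after its values were seen, had 83.9 and 92.2 CPM in UTRmut, 82.9 and 91.2 in het and 73.3 and 87.6 in WT.

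In the difference between the sexes, 1 of the 51 tested partners passed, where 1.20% of all genes did, a share close to that of all genes. It was Atf4 (singled out after its values were seen), which encodes the factor named above. It had 80.7 and 71.7 CPM in the UTRmut female and male, 70.7 and 77.6 in the het female and male and 60.6 and 89.3 in the WT female and male. Its change per allele was 0.37 higher in females than in males on the log2 scale (SE 0.08; edgeR, Benjamini-Hochberg adjusted p = 0.0245), whereas Slc7a11 had -0.06 (SE 0.19). By list, the difference was positive in 8 of 10 genes of potassium and ion handling (median 0.14), 8 of 12 of the glutamate and glutamine cycle (0.10), 6 of 10 of the endfoot (0.08), 5 of 6 of gap junctions (0.16) and 6 of 13 of cystine uptake and glutathione (-0.02), against 48.9% of all genes. At an unadjusted p under 0.05 there were 4, 4, 3, 0 and 3 in the same order, against 13.6% of all genes.

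Of the genes that astrocytes raise when they become reactive, 0 passed. Of 8 tested genes of 11, 4 were positive in UTRmut against WT (median -0.01) and 7 in het against WT (median 0.23). Gfap, an intermediate filament gene, had 78.9 and 78.2 CPM in the UTRmut female and male, 109 and 90.98 in het and 70.7 and 90.3 in WT, and its log2 fold in het was 0.31 (SE 0.12). Vim, another filament gene, had 0.36 (SE 0.17) there. Only the het female was clearly apart for Gfap, and the het male and the WT male were nearly equal. In UTRmut against WT Cp, the ceruloplasmin gene, had -0.24 (SE 0.20) and S1pr3 had 0.22 (SE 0.24).

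Among 11528 genes at 5 CPM or more, those with levels most like Kcnj10 over the 6 libraries were As3mt, Mapk4 and Ifrd1, with mean absolute differences of 0.04, 0.09 and 0.09 on the centred log2 scale. For comparison, Kcnj10 itself deviated from its own mean by 0.25 on average. As3mt, at a mean of 5.22 CPM, had 0.56 and -0.27 in the UTRmut female and male, 0.03 and -0.09 in het and -0.45 and 0.22 in WT relative to its mean. Most like Slc7a11 were Slc25a18, which encodes a mitochondrial glutamate carrier, Nupr1 and Csgalnact1, each at a mean absolute difference of 0.06. These are descriptions over 6 libraries, were not tested, and may also carry differences between libraries in depth or preparation.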

How the data were processed

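The values the authors deposited are whole-number counts, 1 column per library and 1 row per Ensembl identifier, without normalisation. GRCm38, HTSeq 0.6.0, HISAT2, GATK 4.2.3.0 and Trimmomatic 0.39 are named, with no role, per the submitters' processing notes. The strand setting and annotation release of the counting were not given in the sources used. Per the labels, libraries were made from total RNA with a stranded kit. Symbols came from GENCODE M21 for 55227 of 55487 identifiers. Genes were kept with filterByExpr by genotype (minimum count 10, minimum total 15), scaled with TMM and tested in edgeR 4.0.16 under R 4.3.3 (robust quasi-likelihood F test, all 6 libraries in each fit, Benjamini-Hochberg over 16119 genes, threshold 0.05). Each SE was derived from the fold and its F value (|log2 fold| / √F). Log2 CPM used a prior count of 2. DESeq2 1.42.0, other scalings and filters, a replicate block and leaving out each library were alternatives. The steps were tested on simulated data. Reads carry no molecular identifiers, so counting error is a lower limit.

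The 9 genes, the lists and the tests were chosen with earlier results of these data known. All 9 genes are named. Of each list of partner or reactive genes the rule named genes that passed and the 2 with the smallest unadjusted p in UTRmut against WT and het against WT. One gene that this rule names is not reported here. For Kcnj10 and Slc7a11 it named the 3 genes at 5 CPM or more with the smallest mean absolute difference in centred log2 CPM. Replicates of a genotype differed by more than sampling noise (chi-square per gene 4.49 to 8.50).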

Additional observations from a re-analysis of the deposited data

Results flagged for a closer look

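For 5 of the 9 genes the difference between a mutant genotype and WT had opposite signs in the 1 female and the 1 male pair of libraries. UTRmut minus WT in females exceeded the same in males by 1.48 on the log2 scale for Kcnj10, 0.75 for Aqp4, 0.62 for Atp1b2, 0.53 for Gjb6 and 0.51 for Slc1a2. Het minus WT in females exceeded the same in males by 0.75 for Kcnj10, 0.50 for Aqp4, 0.52 for Atp1b2, 0.40 for Gjb6 and 0.21 for Slc1a2. With 1 library per genotype and sex these pairwise differences were not tested. The difference in the change per allele over all 6 libraries was 0.38 for Aqp4, which passed as given above, and 0.74 for Kcnj10, which was chosen for its spread and is a description. The part of vascular, meningeal and blood markers, most of which also had a positive difference between the sexes, was not tested.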

How the results depend on the processing

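Between genotypes and per allele, 0 of the 8 genes other than Kcnj10 passed with DESeq2, the other scalings and filters, the replicate block or only the genotypes compared. Between females and males 0 of the 8 genes other than Kcnj10 passed, and 0 to 1 when a library was left out (Atp1b2 without WT replicate 1 or WT replicate 2). In the difference between the sexes of the change per allele 1 of the 8 passed (Aqp4), 2 with scaling by library size only and 3 with no filter on low counts. The calls over all genes rose as well, from 194 to 256 and 600 in the same order. When a library was left out, the difference of Aqp4 ranged from 0.26 to 0.50. The fits also hold Kcnj10, which has no valid test because its spread chose it and is left out of these tallies of calls. The log2 fold changed sign under at least 1 alternative for 6 of the 9 genes in UTRmut against WT and for 5 in het against WT.

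Over all genes, UTRmut against WT had 1 call, 8 with DESeq2, 27 with no filter, 0 at a minimum count of 50, 3 with only these genotypes and 4 with the replicate block (sex), and 2 to 124 when a library was left out (124 without WT replicate 2). Het against WT had 2, with 13 with no filter, 1 with only these genotypes and 3 with DESeq2, and 1 to 41 when a library was left out. UTRmut against het had 2, with 7 with DESeq2, 28 with no filter, 1 at a minimum count of 50, 10 with only these genotypes and 5 with the block, and 0 to 12. Per allele there were 0, with 4 with DESeq2, 19 with no filter, and 0 to 45. Females against males had 6, with 10 with DESeq2 and 92 with no filter, and 7 to 198. The difference between the sexes had 194, with 77 with DESeq2 and 600 with no filter, and 16 to 733. The causes were not tested.

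Replicate numbers mark sex, and the labels state no pairing. Their deviations correlated across genes at 0.196 (UTRmut and het), 0.0802 (UTRmut and WT) and 0.295 (het and WT). Over autosomal genes the values were 0.064, -0.032 and 0.215 in the same order. Since replicate number and sex coincide, these values do not decide whether libraries of 1 number shared anything besides sex. The replicate block changed no call among the 8 genes other than Kcnj10. In het against WT the block gave 3 calls over all genes. Kcnj10 had a negative log2 fold of -0.11 in UTRmut against WT without UTRmut replicate 1, against 0.32. Depth gave at least 506 counts per library for each of the 9 genes, and 2 libraries per genotype limit the precision.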
